A study of Homo sapiens with 6 samples.

Results

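The dual specificity MAP kinase phosphatases followed here are 10 genes, DUSP1, DUSP2, DUSP4, DUSP5, DUSP6, DUSP7, DUSP8, DUSP10, DUSP14 and DUSP16, taken by their gene names from the 57773 genes of the deposited count table, where each name was found in a single row. They were measured by RNA-seq in HepG2, a human hepatocellular carcinoma cell line, in 3 cultures given human recombinant TGFB1 ligand (TGFβ) at 5 ng/mL and 3 cultures given vehicle, all for 3 h. No other agent or genetic change is named for either group. Per the methods of the study, the cells of both groups were washed and put into MEM without serum when TGFβ or vehicle was given. The levels below are therefore those of cells without serum. The methods of the study call the sequenced samples biological replicates, while the labels do not say whether the cultures of a group were grown on separate occasions, and P-values measure the spread between these cultures.

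MAP kinases (the ERK, JNK and p38 families) are switched on by phosphorylation of a threonine and a tyrosine in the same loop, and these phosphatases remove both phosphates. Many of them are short-lived products of genes that MAP kinase signaling itself turns on, so that they close a negative feedback loop. DUSP1, DUSP2, DUSP4 and DUSP5 are nuclear enzymes encoded by inducible genes, DUSP6 and DUSP7 are cytoplasmic and prefer ERK, and DUSP8, DUSP10 and DUSP16 act on JNK and p38. DUSP14 is a small atypical member that lacks the kinase-docking domain of the others. TGFβ acts through SMAD transcription factors and also through MAP kinases, by way of the kinase TAK1 (MAP3K7) and its TAB partners.

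Between 60815385 and 100099136 reads were counted on genes per culture, and 22747 genes had enough reads for testing. Levels are given as CPM, read counts brought to a common library size by TMM scaling, and groups were compared with the quasi-likelihood test of edgeR, with Benjamini-Hochberg adjustment over all 22747 genes and an adjusted P under 0.05 as the threshold. The hepatocyte markers marked the cells as labelled, with ALB between 13800 and 17200 CPM in every culture, and 0 of 8 hepatocyte markers were called between the groups by edgeR, DESeq2 or voom, with 0 at an unadjusted P under 0.05. With the culture number as a block in the fit (the replicate block), which compares each TGFβ culture with the vehicle culture of the same number, 2 of them, TTR and FGB, were called. The 3 endothelial markers found in the table summed to at most 0.272 CPM in a culture, from 8 to 10 reads of CDH5, 7 to 14 of VWF and 0 of KDR.

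TGFβ moved these phosphatases in both directions. DUSP1 rose 1.51-fold, while DUSP6 and DUSP10 fell, being 1.70-fold and 1.65-fold higher with vehicle. When each culture was left out in turn, these calls held in 3 of 6 fits for DUSP1, 1 for DUSP6 and 0 for DUSP10. With the replicate block, DUSP8 also rose and DUSP14 also fell. Of the 10 genes, 9 had enough reads for testing, and 1 was called higher and 2 were called lower. Among all genes tested, 4.12% were called, 3.11% higher and 1.01% lower. With the block, 2 of the 9 were called higher and 3 lower, against 11.8% of all genes called, 8.08% higher and 3.75% lower. The 10 genes were chosen with earlier results of these data known, so these counts beside the shares are a description only. The median log2 fold change of the 9 genes was -0.12, with a range from -0.76 to 0.59, and that of all genes tested was -0.01.

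**Figure D1:**
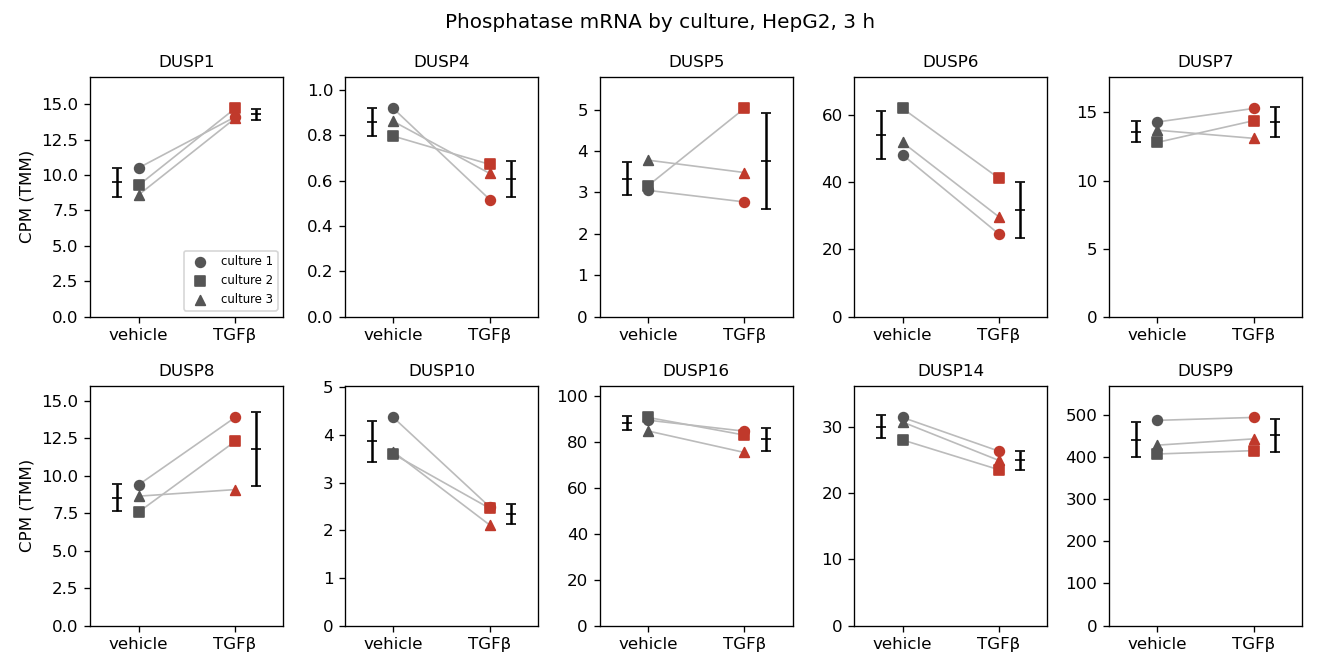
CPM (TMM-normalized, linear axis from 0) of 9 of the phosphatases and of DUSP9 in each vehicle (gray) and TGFβ (red) culture of HepG2 cells. Marker shapes give the culture number, lines join cultures with the same number, and bars beside the points give the mean ± SD (n = 3). DUSP1 lay between 14.0 and 14.7 CPM with TGFβ, above all vehicle cultures, and DUSP6 fell along each of its 3 lines.

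DUSP1 (ENSG00000120129, minus strand of chromosome 5 from 172195093 to 172198198 in hg19), the founding member of the family and a nuclear phosphatase of p38 and JNK, was the member with the lowest P. It had 10.5, 9.27 and 8.59 CPM in vehicle cultures 1, 2 and 3 and 14.1, 14.7 and 14.0 CPM in TGFβ cultures 1, 2 and 3. All TGFβ cultures were above all vehicle cultures and lay closer together than the vehicle cultures did. The mean rose from 9.47 ± 0.993 CPM (SD, n = 3) to 14.3 ± 0.387 CPM (SD, n = 3), a log2 fold change of 0.59 (standard error 0.11, adjusted P = 0.0125). The call was lost without vehicle replicate 2 (adjusted P = 0.067), vehicle replicate 3 (adjusted P = 0.0725) or TGFβ replicate 2 (adjusted P = 0.0659), where the log2 fold change was 0.57, 0.53 and 0.56. With the replicate block the adjusted P was 0.000809.

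DUSP2 (ENSG00000158050), DUSP4 (ENSG00000120875) and DUSP5 (ENSG00000138166) are the other inducible nuclear enzymes. DUSP2, known from activated leukocytes, had 2 reads in TGFβ culture 2 and 0 reads in each of the other 5 cultures. A count of 0 allows up to 3 reads, which correspond to between 0.031 and 0.0487 CPM in these libraries, so DUSP2 was not detectable at this depth in either group. DUSP4 was also low, with 0.918, 0.796 and 0.861 CPM in the vehicle cultures and 0.516, 0.671 and 0.631 CPM in the TGFβ cultures. Every TGFβ culture was below every vehicle culture, but on 46 to 81 reads per culture the log2 fold change of -0.51 had a standard error of 0.22, and it did not pass the test (adjusted P = 0.346, and 0.187 with the block). DUSP5, a nuclear phosphatase of ERK, had 3.05, 3.16 and 3.78 CPM with vehicle and 2.77, 5.03 and 3.48 CPM with TGFβ. Its TGFβ culture 2 stood above all others, and the remaining cultures overlapped. The log2 fold change was 0.18 (standard error 0.22, adjusted P = 0.83), and it was -0.10 without TGFβ replicate 2.

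DUSP6 (ENSG00000139318, minus strand of chromosome 12 from 89741009 to 89747048), the cytoplasmic ERK phosphatase whose own gene is a known readout of ERK activity, showed the largest fall among the 10 genes. It had 48.1, 61.9 and 51.8 CPM in vehicle cultures 1, 2 and 3 and 24.5, 41.1 and 29.6 CPM in TGFβ cultures 1, 2 and 3. Each TGFβ culture was below each vehicle culture, and culture 2 was the highest of its group in both groups. The mean fell from 53.9 ± 7.14 CPM to 31.7 ± 8.46 CPM (SD, n = 3), a log2 fold change of -0.76 (standard error 0.17, adjusted P = 0.0355). Within the culture numbers the log2 ratio of TGFβ to vehicle (on log2 CPM with a prior count of 2) was -0.97, -0.59 and -0.80, and with the replicate block the standard error was 0.07 and the adjusted P 3.17e-05. Without a single culture the log2 fold change was between -1.0 and -0.61 and the adjusted P between 0.00504 and 0.204, and it passed only without TGFβ replicate 2. With at least 10 counts required in every library the log2 fold change was -0.76 (adjusted P = 0.0516), and without a filter on low counts it was -0.79 (adjusted P = 0.261). The call was kept by DESeq2 (adjusted P = 0.000522), by voom (adjusted P = 0.0345) and with total-count scaling (adjusted P = 0.0362).

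DUSP7 (ENSG00000164086), the other cytoplasmic phosphatase of ERK among the 10 genes, had 14.3, 12.8 and 13.7 CPM with vehicle and 15.3, 14.4 and 13.1 CPM with TGFβ. The groups overlapped, and its log2 fold change was 0.07 (standard error 0.10, adjusted P = 0.853). DUSP6 and DUSP7 thus had fitted log2 fold changes of -0.76 and 0.07; the difference between them was not tested.

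Of the JNK and p38 phosphatases, DUSP10 (ENSG00000143507, minus strand of chromosome 1 from 221874766 to 221915518) fell. It had 4.37, 3.60 and 3.65 CPM in the vehicle cultures and 2.49, 2.46 and 2.11 CPM in the TGFβ cultures. The groups did not overlap, and the lowest vehicle culture was well above the highest TGFβ culture. The log2 fold change was -0.72 (standard error 0.16, adjusted P = 0.0335), and with the block the adjusted P was 0.00406. Leaving out any 1 of the 6 cultures kept the log2 fold change between -0.78 and -0.63 but raised the adjusted P to between 0.0659 and 0.102.

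DUSP8 (ENSG00000184545, minus strand of chromosome 11 from 1575274 to 1593150) had 9.40, 7.58 and 8.64 CPM in the vehicle cultures and 13.9, 12.3 and 9.08 CPM in the TGFβ cultures. TGFβ cultures 1 and 2 were above all vehicle cultures, while TGFβ culture 3 lay among them. The log2 ratios within culture numbers 1, 2 and 3 were 0.56, 0.70 and 0.07. The log2 fold change was 0.47 (standard error 0.16, adjusted P = 0.196), so that DUSP8 did not pass without the block and passed with it (adjusted P = 0.0302). It passed as well without TGFβ replicate 3 (log2 fold change 0.61, adjusted P = 0.0281) and with the block in cultures 1 and 2 alone (0.63, adjusted P = 0.000182), whose 2 libraries shared a lane; the libraries of culture 3 were on lanes 4 and 5.

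DUSP16 (ENSG00000111266), a JNK phosphatase, held the most reads of the 10 genes and differed little between the groups. It had 89.6, 90.8 and 84.9 CPM with vehicle and 84.8, 83.1 and 75.5 CPM with TGFβ. The highest TGFβ culture was just below the lowest vehicle culture. The log2 fold change was -0.12 (standard error 0.07, adjusted P = 0.564, and 0.151 with the block). DUSP8 and DUSP10 therefore stood on opposite sides of 0 with DUSP16 between them, and the differences among the 3 genes were not tested.

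DUSP14 (ENSG00000161326), the atypical member, had 31.4, 28.0 and 30.7 CPM with vehicle and 26.3, 23.5 and 24.9 CPM with TGFβ. All TGFβ cultures were below all vehicle cultures, by log2 ratios of -0.25, -0.26 and -0.30 within the culture numbers. The log2 fold change of -0.27 (standard error 0.08) did not pass without the block (adjusted P = 0.128) and passed with it (adjusted P = 0.00934).

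The 2 groups did not overlap in CPM for 6 of the 9 tested phosphatases, of which DUSP1 was higher and DUSP4, DUSP6, DUSP10, DUSP14 and DUSP16 were lower with TGFβ. Among all genes tested, 18.6% did not overlap, 10.4% higher and 8.23% lower. For each of these 6 genes the exact permutation test over the 6 cultures (two-sided) gave P = 0.1, the smallest that 3 cultures against 3 allow.

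**Figure D2:**
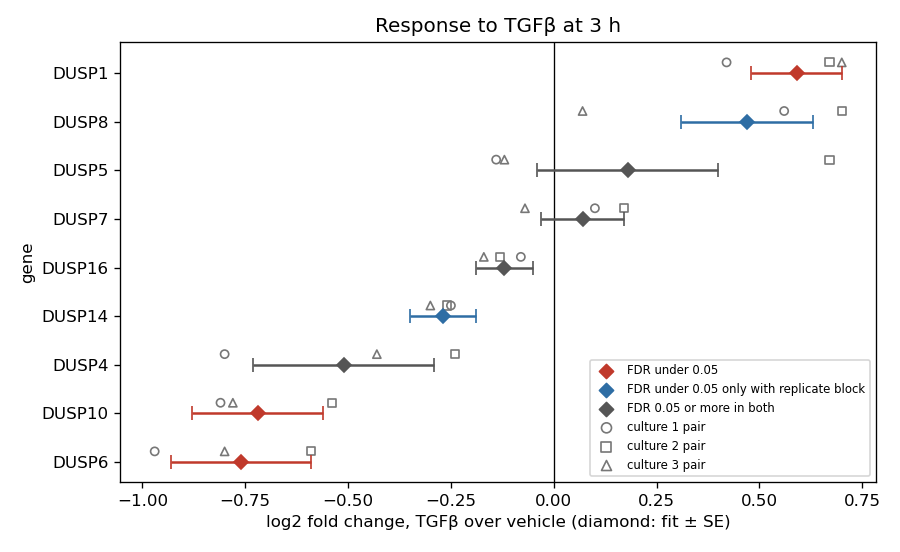
Fitted log2 fold change, TGFβ over vehicle, of the 9 tested phosphatases (diamonds, with bars of ± 1 standard error), and the log2 ratio of CPM within each pair of same-numbered cultures (open symbols). Red marks an adjusted P under 0.05, blue an adjusted P under 0.05 only with the replicate block, and gray neither. DUSP1 and DUSP8 lie at 0.59 and 0.47, and DUSP10 and DUSP6 at -0.72 and -0.76.

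The promoters of the genes that moved are shown for the sequence elements they hold. No promoter of DUSP4 or DUSP5 was searched. RefSeq promoters of 250 bases before and 50 bases from the start site were used for 8 of the 10 genes, 2 of them for DUSP10. They were searched on both strands for the cAMP response element (CRE, TGACGTCA) and the shorter CRE cores that overlap it (TGACG or CGTCA), the SMAD element (CAGAC or GTCTG), the AP-1 element (TGANTCA), the ETS element (CCGGAA or TTCCGG), the TATA box (TATAAA or TTTATA) and the CArG box of serum response factor. The full CRE was found in the promoters of DUSP1 and DUSP8, in 2 copies in the latter, and in no other promoter searched. Of all 35116 RefSeq promoters of this length, 1.85% held it. That share covers promoters of any G and C content and was not matched to these genes, whose promoters are richer in both. DUSP8 was called higher only with the block. In the following sequences, 5′ to 3′ on the strand of the gene and with GRCh37 coordinates found by exact match, capitals mark CRE cores and SMAD elements, and a run of TGACGTCA is a full CRE.
DUSP1, minus strand, chr5:172198149-172198448: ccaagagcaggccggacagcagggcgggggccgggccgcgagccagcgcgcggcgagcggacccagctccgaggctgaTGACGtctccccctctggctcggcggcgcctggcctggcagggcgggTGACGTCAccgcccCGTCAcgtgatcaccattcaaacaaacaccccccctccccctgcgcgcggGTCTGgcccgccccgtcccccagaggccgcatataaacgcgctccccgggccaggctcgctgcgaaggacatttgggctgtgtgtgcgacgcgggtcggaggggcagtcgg
DUSP8, minus strand, chr11:1593452-1593751: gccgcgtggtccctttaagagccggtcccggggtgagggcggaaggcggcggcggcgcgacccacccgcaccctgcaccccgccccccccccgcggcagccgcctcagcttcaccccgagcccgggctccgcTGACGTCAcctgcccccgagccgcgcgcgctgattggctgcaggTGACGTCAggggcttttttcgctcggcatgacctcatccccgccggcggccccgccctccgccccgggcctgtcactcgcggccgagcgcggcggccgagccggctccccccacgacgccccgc
The CRE of DUSP1 begins at base -125 from the start site, between a CRE core at -172 and another at -111, followed by a SMAD element at -61 and a TATA box at -30. Those of DUSP8 begin at -118 and -74. A match is a description of the letters and not of a factor at work there. Whether these elements go with the direction of the response was not tested.

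The promoters of DUSP6 and DUSP10, the 2 genes called lower without the block, held none of the capital elements and are given for comparison. For DUSP10 this is the start site nearest to the end of the gene in the table. Counted inward from that end, the start site lay at 770 bases for DUSP6, 87 for DUSP10 and 0 for DUSP1. For DUSP8 it lay at -351, outside the gene as counted. That of DUSP14, called lower only with the block as DUSP8 was called higher, held none either and is not printed.
DUSP6, minus strand, chr12:89746229-89746528: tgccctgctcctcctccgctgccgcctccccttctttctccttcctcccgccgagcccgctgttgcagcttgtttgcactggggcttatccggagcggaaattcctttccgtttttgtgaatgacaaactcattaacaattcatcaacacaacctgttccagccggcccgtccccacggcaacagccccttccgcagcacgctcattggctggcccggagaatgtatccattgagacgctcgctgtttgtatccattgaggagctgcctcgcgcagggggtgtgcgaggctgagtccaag
DUSP10, minus strand, chr1:221915382-221915681: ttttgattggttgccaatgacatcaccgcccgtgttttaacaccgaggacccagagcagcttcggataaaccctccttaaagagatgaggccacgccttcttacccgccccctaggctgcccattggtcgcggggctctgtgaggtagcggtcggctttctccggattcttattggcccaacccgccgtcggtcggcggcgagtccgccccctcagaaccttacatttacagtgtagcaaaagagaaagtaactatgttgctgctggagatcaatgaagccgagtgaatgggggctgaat
The second RefSeq promoter of DUSP10 held 1 CRE core, at -4. The SMAD element was found in DUSP1, DUSP2 and DUSP16, and in 45.3% of all promoters; a CRE core was held by 24.6% of all promoters. AP-1, ETS and CArG elements were found in 0 of the 9 promoters, and in 7.71%, 17.2% and 1.29% of all promoters. No match says only that these letters are not in this window. The promoters of these genes were rich in G and C, with a median of 73.3% over the 9, from 55.0% in DUSP10 to 81.0% in DUSP14, against a median of 58.7% over all promoters.

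To order the phosphatases by level, CPM was divided by the coding length in the table in kilobases (RPKM). DUSP16 stood first with 21.9 ± 0.769 RPKM (SD, n = 3) in the vehicle cultures, or 38.4% of the summed RPKM of the 10 genes. DUSP14 (12.0 ± 0.711 RPKM) and DUSP6 (11.6 ± 1.54 RPKM) followed, and these neighbors overlapped between cultures. They were followed by DUSP1 (4.69 ± 0.492 RPKM), DUSP7 (2.41 ± 0.136 RPKM) and DUSP8 (1.85 ± 0.198 RPKM), whose ranges were separate. DUSP5 (1.27 ± 0.152 RPKM) and DUSP10 (1.12 ± 0.124 RPKM) overlapped, and DUSP4 (0.118 ± 0.00835 RPKM) was far below. The same order was found with the RPKM deposited by the authors.

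With TGFβ the mean of DUSP1 was above that of DUSP6 and the mean of DUSP8 above that of DUSP7, but neither pair was separate. DUSP1 and DUSP6 overlapped with TGFβ, at 6.92 to 7.29 and 5.30 to 8.86 RPKM, and so did DUSP8 and DUSP7, at 1.97 to 3.01 and 2.32 to 2.71 RPKM. The share of DUSP6 in the summed RPKM of the 10 genes went from 20.4% ± 2.52 to 13.3% ± 3.04 (SD, n = 3) and that of DUSP1 from 8.22% ± 0.764 to 13.8% ± 0.464. The RPKM of DUSP6 was 1.99, 2.91 and 2.63 times that of DUSP1 in vehicle cultures 1, 2 and 3, and 0.756, 1.22 and 0.924 times in TGFβ cultures 1, 2 and 3. This ratio was formed after both genes were seen to move, and is given without a test. The summed RPKM was 57.5, 57.9 and 55.7 with vehicle and 51.4, 54.1 and 48.3 with TGFβ.

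DUSP9 (ENSG00000130829), the remaining classical MAP kinase phosphatase and a cytoplasmic one, is not among the 10 genes and was far more abundant. It had 176, 147 and 155 RPKM with vehicle and 178, 150 and 160 RPKM with TGFβ, between 2.54 and 3.47 times the sum of the 10 genes in each culture. The groups overlapped, and its log2 fold change was 0.03 (standard error 0.09, adjusted P = 0.932). That value turned to -0.01 with total-count scaling.

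**Figure D3:**
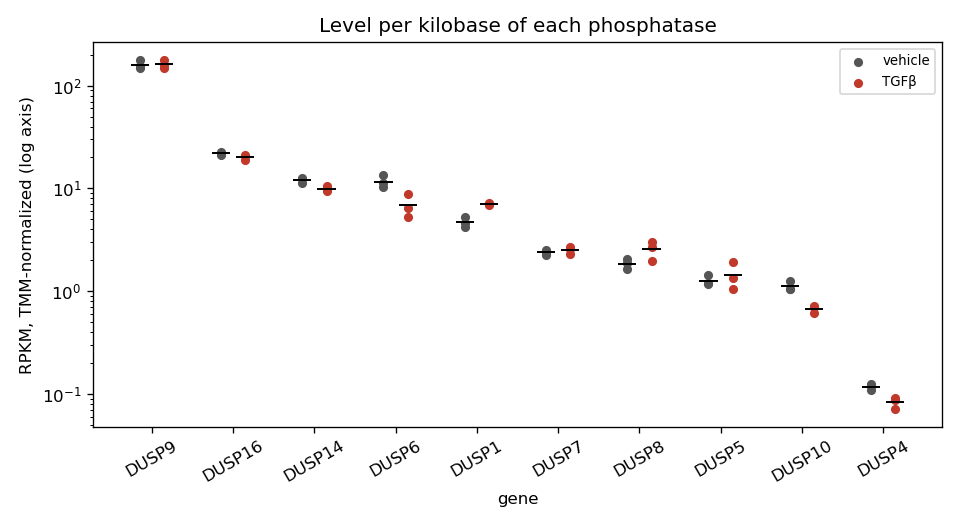
RPKM (TMM-normalized CPM per kilobase of coding length, log axis) of DUSP9 and of 9 of the phosphatases in the vehicle (gray) and TGFβ (red) cultures, with points for cultures and short lines for the mean of 3. DUSP2, at 0 reads in 5 of 6 cultures, is not drawn. DUSP9 lies between 147 and 178 RPKM, and DUSP16 follows at 18.7 to 22.5.

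None of the other dual specificity phosphatase genes tested was called. Of 16 listed, among them DUSP3, DUSP9 and DUSP22, 12 were tested and 0 were called by edgeR (with or without the block), DESeq2 or voom, and 0 had an unadjusted P under 0.05. Their log2 fold changes ran from -0.27 to 0.13, with a median of 0.06. The lowest P belonged to STYXL1, an inactive relative of the family (log2 fold change 0.13, standard error 0.08, adjusted P = 0.609). Without the block, 4.12% of all genes tested were called, 3.11% higher and 1.01% lower, and with it 11.8%. Each list count here and below stands beside these shares. A list of 12 or fewer genes with 0 calls is near the share without the block. Of 7 further phosphatases that act on MAP kinases, 4 were tested and 1 was higher. This was PPM1A, a serine/threonine phosphatase of p38 and also of SMAD2 and SMAD3, which rose from 47.0 ± 0.802 to 62.1 ± 3.38 CPM (log2 fold change 0.40, standard error 0.07, adjusted P = 0.0114). Its adjusted P was between 0.0124 and 0.0731 without single cultures, and passed in 2 of 6.

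The MAP kinases, the family that holds the substrates of these enzymes, were followed as a list of 14, of which 11 were tested. Of these, 2 were higher and 0 lower, and 4 were higher with the block; the median log2 fold change was 0.15. MAPK14, the p38α kinase, rose from 136 ± 5.44 to 187 ± 3.25 CPM (log2 fold change 0.47, standard error 0.07, adjusted P = 0.00361) and passed without any single culture. MAPK7, the ERK5 kinase, rose from 13.2 ± 1.22 to 19.3 ± 1.65 CPM (log2 fold change 0.55, standard error 0.11, adjusted P = 0.0168), and its adjusted P was up to 0.0827 without single cultures. MAPK3 (ERK1) and MAPK9 (JNK2) were the 2 added by the block, with log2 fold changes of 0.24 and 0.18 there (adjusted P = 0.0119 and 0.0442).

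Upstream, 0 of 7 tested MAP kinase kinases were called by edgeR, DESeq2 or voom, and 1 had an unadjusted P under 0.05. This was MAP2K6, an activator of p38, which had 14.9, 12.2 and 16.1 CPM with vehicle and 11.8, 8.61 and 11.8 CPM with TGFβ (log2 fold change -0.42, standard error 0.15, adjusted P = 0.21). It passed with the block (adjusted P = 0.00406). Of the kinases above them, 20 of 23 listed were tested and 2 were higher and 0 lower. MAP3K8 rose from 11.8 ± 1.13 to 17.0 ± 1.03 CPM (log2 fold change 0.52, standard error 0.11, adjusted P = 0.0211) and MAP3K2 from 75.9 ± 5.70 to 98.9 ± 5.94 CPM (log2 fold change 0.38, standard error 0.08, adjusted P = 0.0291). MAP3K8 lost its call without vehicle replicate 2 or 3 or TGFβ replicate 1, with an adjusted P of up to 0.0933. MAP3K2 lost it with total-count scaling (adjusted P = 0.0515) and without any 1 of 5 cultures, with an adjusted P of up to 0.123.

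Among 10 tested scaffold and TAB genes, KSR1, a scaffold that brings RAF, MEK and ERK together, rose from 32.0 ± 1.66 to 58.6 ± 5.35 CPM (log2 fold change 0.87, standard error 0.09, adjusted P = 0.000482) and passed under each of the 14 alternatives. Without the block, edgeR and voom called 1 gene of this list and DESeq2 called 3, and edgeR called 3 with the block. Those added by the block went in opposite directions. TAB2 was higher (log2 fold change 0.35 with the block, adjusted P = 0.000851) and TAB3 lower (-0.34, adjusted P = 0.00939). Without the block their adjusted P was 0.0512 and 0.0636. Of 10 tested kinases activated by MAP kinases, 0 were called by edgeR, DESeq2 or voom and 1 had an unadjusted P under 0.05. This was MAPKAPK2, a kinase downstream of p38, with a log2 fold change of 0.32 (standard error 0.11, adjusted P = 0.172, and 0.00274 with the block).

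Genes known to be driven by ERK did not move in 1 direction. Of 12 listed, 10 were tested, of which 2 were higher and 2 lower, and 5 were higher and 2 lower with the block. MYC fell from 134 ± 6.47 to 63.7 ± 5.28 CPM (log2 fold change -1.08, standard error 0.08, adjusted P = 9.92e-05) and PHLDA1 from 203 ± 6.74 to 145 ± 15.4 CPM (log2 fold change -0.48, standard error 0.09, adjusted P = 0.0114). CCND1, the cyclin D1 gene, rose from 285 ± 6.67 to 456 ± 27.7 CPM (log2 fold change 0.68, standard error 0.07, adjusted P = 0.000689) and IER2, an immediate early gene, from 34.2 ± 1.40 to 55.6 ± 9.52 CPM (log2 fold change 0.70, standard error 0.11, adjusted P = 0.00757). MYC, CCND1 and IER2 passed under each of the 14 alternatives, and PHLDA1 in all but that without vehicle replicate 2 (adjusted P = 0.0556). Of the Sprouty and SPRED genes, inhibitors of the same pathway, 6 of 7 were tested and 0 were called by edgeR, DESeq2 or voom, with 0 at an unadjusted P under 0.05. SPRY1, the lowest in P, gave a log2 fold change of -0.26 (standard error 0.15, adjusted P = 0.511), and 1 gene was higher and 1 lower with the block.

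**Figure D4:**
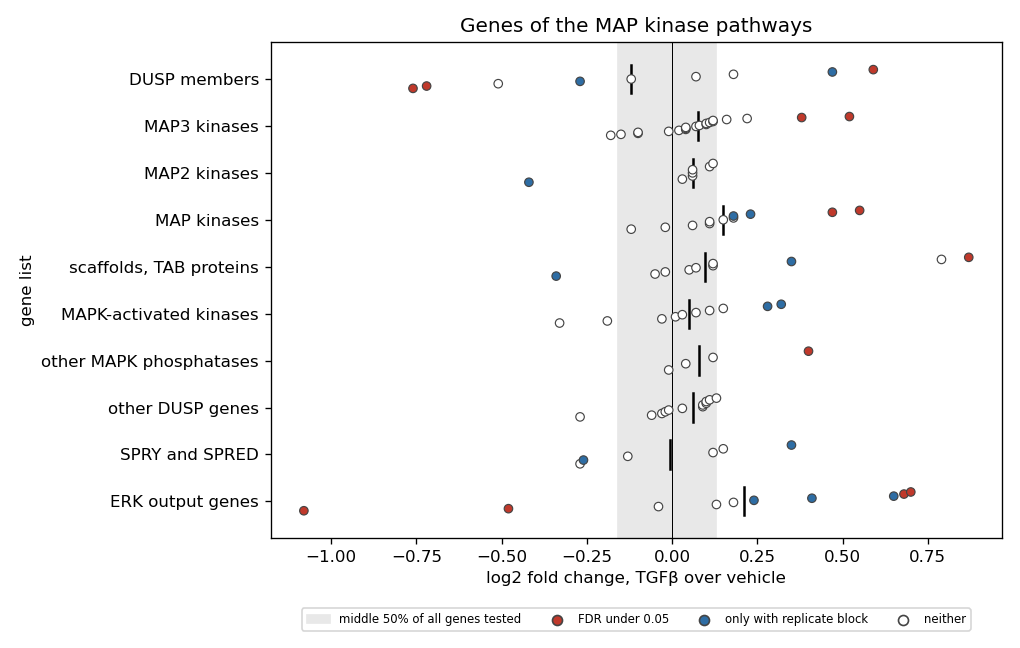
Fitted log2 fold change, TGFβ over vehicle, of each tested gene of the phosphatases and of 9 lists of MAP kinase pathway genes (rows). Vertical strokes give the median of a list, the gray band the middle 50% of all genes tested (-0.16 to 0.13), red an adjusted P under 0.05, and blue an adjusted P under 0.05 only with the replicate block. The other DUSP genes lie between -0.27 and 0.13 without a call, and MYC, at -1.08, lies farthest to the left.

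Over the 9 pathway lists together, 90 of 108 listed genes were tested. Of these, 8 were higher and 2 lower, with a median log2 fold change of 0.09. Among all genes tested, 3.11% were higher and 1.01% lower, with a median of -0.01. With the block 17 genes of the lists were higher and 5 lower, against 8.08% and 3.75% of all genes tested. Of the markers of other cell types, 2 of 6 fibroblast markers and 3 of 5 leukocyte markers had enough reads for testing, and edgeR without the block called 0 of either (2 and 1 had an unadjusted P under 0.05). With the block it called 2 fibroblast markers and 1 leukocyte marker, DESeq2 called 0 and 1, and voom called 0 and 0. The summed level of the 6 fibroblast markers was between 13.6 and 15 CPM with vehicle and between 23.3 and 34.7 CPM with TGFβ, nearly all of it from PDGFRB and COL1A1, while COL1A2, COL3A1, DCN and LUM were at most at 0.144 CPM. PDGFRB had a log2 fold change of 1.22 (adjusted P = 0.0582) and COL1A1 of 0.57 (adjusted P = 0.193), and both passed with the block. The leukocyte markers summed to between 1130 and 1460 CPM with vehicle and between 985 and 1080 CPM with TGFβ, nearly all of it LYZ (log2 fold change -0.35, adjusted P = 0.106, and 0.0157 with the block), whose TGFβ cultures were all below its vehicle cultures. CD68 was between 34.6 and 40.5 CPM, while PTPRC had reads in a single culture at 0.0137 CPM, and CD3E had 0 reads in all 6 cultures. The part of other cells in the results above was not tested, and in such bulk samples fewer cells of a kind and less RNA per cell cannot be told apart.

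The genes whose pattern over the 6 cultures was most like that of DUSP1, by Pearson's correlation of log2 CPM, were DENND5A (0.997), PCGF1 (0.996) and PCDH1 (0.995), and 362 of 15898 genes compared exceeded 0.95. For DUSP16, the member with most reads, they were CXADR (0.997), CCDC152 (0.992) and JMJD7-PLA2G4B (0.989), and 69 genes exceeded 0.95. Of these 6 genes, only PCGF1 and PCDH1 overlap no other gene in the table, so the counts of the others can hold reads of a neighbor. The correlations describe 6 libraries in 2 groups and share the group difference. Of the phosphatases, DUSP1, DUSP8 and DUSP16 overlap a gene annotated on the other strand. That at DUSP8, KRTAP5-AS1, had 7 to 31 reads per culture and a log2 fold change of 0.18 (adjusted P = 0.926), and those at DUSP1 and DUSP16 had at most 3 and 4 reads.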

How the data were processed

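RNA was measured in 6 HepG2 cultures. Per the labels and the methods of the study, the authors sequenced TruSeq v2 libraries as paired reads, used MAPRseq for alignment to hg19 and gene counts; the submitters' processing notes name TopHat2 2.0.6 and HTSeq. The deposited counts are raw whole numbers, and the deposited RPKM values, scaled by the authors by coding length and sequencing depth, served for 1 check. No source used here names the annotation release or strand setting.

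Counts were tested with edgeR 4.0.16 (TMM, filterByExpr, robust quasi-likelihood F test, no block, Benjamini-Hochberg adjustment; R 4.3.3), and standard errors are those implied by F. Alternatives were other scalings and filters, DESeq2 1.42.0 without independent filtering, voom of limma 3.58.1, the replicate block, and leaving out each culture. The fit was tested on simulated counts. It called 70.8% of the genes given a log2 change of 1 and 94.8% of those given 2. Of its calls, 5.92% fell on unchanged genes. Smaller changes were not simulated, so the share of them that the fit would miss is not known. The limit given for a count of 0 covers counting error only, and standard errors include the spread between cultures. Replicates of a group differed by more than counting noise (mean chi-square per gene between 21.0 and 46.2).

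Across genes, the deviation from the group mean correlated at 0.366, 0.227 and 0.316 between cultures of the same number and at most at 0.0101 otherwise. The numbers were therefore taken as pairs in the alternative with the replicate block. The folds, standard errors and calls come from the fit without the block unless it is named. Deviations cancel out within a group, so the low values between different numbers are not separate evidence of pairing. The libraries of culture 1 shared a lane, as did those of culture 2, while those of culture 3 were on lanes 4 and 5. The part of the lane in these correlations was not tested.

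The phosphatases and all gene lists were chosen with earlier results of these data known. Named genes are the 10 phosphatases, DUSP9, up to 4 genes per list by lowest P among those called (or the lowest P), and the 3 genes most like DUSP1 and DUSP16. Others, among them MAPK3, MAPK9, TAB2, TAB3, SPRY4, IER3, EGR1, EPHA2, ETV5, PDGFRB, COL1A1, LYZ and the other cell type markers, were named after their values were seen. Of 108 pathway symbols and 23 marker symbols, 106 and 22 were found in the table. Promoters were taken from RefSeq (GRCh38.p14) and placed on GRCh37 by exact match; that of DUSP14 was not placed. Strands are those of GENCODE on GRCh37.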

Additional observations from a re-analysis of the deposited data

How the results depend on the processing

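With the replicate block, 2 phosphatases were higher and 3 lower (DUSP8 and DUSP14 added), 2690 genes were called in all (1837 higher, 853 lower), and 22 genes of the pathway lists. With the block in cultures 1 and 2 alone, 2 phosphatases were higher, 3063 genes were called (1890 higher, 1173 lower), and 22 genes of the pathway lists. With at least 10 counts in every library, or without a filter, 1 phosphatase was lower, since DUSP6 lost its call. DESeq2 called 388 genes lower and the fit without a filter 366. Without single cultures, between 0 and 2 phosphatases were higher and between 0 and 1 lower, between 485 and 998 genes were called (394 to 778 higher, 91 to 220 lower), and between 5 and 11 genes of the pathway lists. The total was 518 without vehicle replicate 2, 485 without vehicle replicate 3 and 561 without TGFβ replicate 2, and the genes called lower were 144 without TGFβ replicate 1. The lists had 5 called genes without vehicle replicate 2 and 6 without vehicle replicate 3 or TGFβ replicate 1. Of the 6 fits without a single culture, DUSP6 kept its call only in that without TGFβ replicate 2, and DUSP10 in 0. The log2 fold change of DUSP5 ranged from -0.10 to 0.35 without single cultures, and that of DUSP9 from -0.04 to 0.10, with -0.01 under total-count scaling. The 8 tested phosphatases other than DUSP5 kept their direction in all 14 alternatives. The summed RPKM of the 10 genes with vehicle was 57.0 and, with the RPKM as deposited, 47.2 (the cause was not tested). Beyond the calls named here and in the results, the block changed no call of a phosphatase.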

Other observations

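Culture 2 differed from cultures 1 and 3 in several gene groups, among them genes known to report ERK activity, which was seen in the values and not looked for in advance. DUSP6 was the only 1 of the 9 tested phosphatases that was highest in culture 2 in both groups, at 61.9 CPM with vehicle and 41.1 CPM with TGFβ. The same held for 5 of 6 tested Sprouty and SPRED genes and for 6 of 10 tested ERK output genes, against 15.6% of all genes tested. SPRY4, which encodes an inhibitor of receptor tyrosine kinase signaling, had 40.6, 64.8 and 47.9 CPM in vehicle cultures 1, 2 and 3 and 47.9, 89.2 and 58.8 CPM in TGFβ cultures 1, 2 and 3. IER3, an immediate early gene, had 66.8, 94.8 and 70.4 CPM with vehicle and 96.7, 164 and 105 CPM with TGFβ. EGR1, EPHA2 and ETV5 were also higher in culture 2 than the mean of cultures 1 and 3 by log2 differences of 0.37, 0.29 and 0.34 with vehicle and 0.66, 0.58 and 0.28 with TGFβ. PDGFRB, a growth factor receptor gene, had 9.22 CPM in vehicle culture 2 and 24 CPM in TGFβ culture 2, above the other cultures of its group, whereas COL1A1, the other tested fibroblast marker, was lower in culture 2 by log2 differences of -0.67 with vehicle and -0.13 with TGFβ. All 8 hepatocyte markers were lower in culture 2 in both groups, from -0.09 (HNF4A) to -0.60 (TTR) with vehicle and from -0.20 (SERPINA1) to -0.94 (TTR) with TGFβ. The part of these differences in the values of DUSP6 was not tested. Both libraries of culture 2 were run on lane 3, so the lane and the culture cannot be told apart.

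Within the same pairs, DUSP6 went the other way than SPRY4 and IER3 with TGFβ. SPRY4 had log2 ratios of 0.24, 0.46 and 0.29 in pairs 1, 2 and 3, and with the block its log2 fold change was 0.33 (adjusted P = 0.00271). IER3 had log2 ratios of 0.53, 0.79 and 0.58, and with the block its log2 fold change was 0.63 (adjusted P = 2.96e-05). SPRY1 fell with DUSP6, with log2 ratios of -0.26, -0.27 and -0.26 and an adjusted P of 0.0103 with the block. None of SPRY4, IER3 and SPRY1 passed without the block (adjusted P = 0.6, 0.12 and 0.511).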
